A study of Oryza sativa with 12 samples.

Results

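Jasmonate is made from linolenic acid in a fixed order of steps, and the genes described here cover the steps that follow lipoxygenase, together with the perception of the hormone. They were chosen as a list of 9 loci of the Rice Genome Annotation Project, whose version 7 build the coordinates below refer to: AOS1, AOS2, AOC, OPR7, OPR1, JAR1, COI1a, COI1b and MYC2. A gene was taken from the deposited expression table where a row named its locus alone, which 8 of the 9 loci had, out of 53380 loci named alone in the table. OPR1 occurred only in a row that names 3 loci and is given apart. All 8 genes had at least 1 FPKM (fragments scaled to transcript length and to the number of mapped fragments) in at least 1 group, AOS2 through a single group, and belong to the 19126 genes compared on that filter.

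The samples were peduncles, the uppermost internodes that carry the panicle, of field-grown *Oryza sativa* ssp. *indica* plants of the cultivars Swarna, the shorter, and Pokkali, the taller. In each cultivar, non-elongating peduncles sampled after heading (NP) were set against elongating peduncles sampled before heading (EP), with 3 libraries in each of the 4 groups. No treatment is given for any group, and the stage of the peduncle and the age of the plant at sampling cannot be told apart. The study reports that Pokkali took longer from sowing to heading than Swarna, so cultivar and plant age cannot be told apart either. The study calls the libraries of a group biological replicates, and the labels do not say whether they came from separate plants or were pooled from several. For each gene the table gives 1 FPKM to a group, standing for its 3 libraries together, so no spread between replicates, no interval and no test could be calculated, and no difference given here has a replicate check. The study called differential expression with Cuffdiff, by a fold and a P-value cutoff, which could not be repeated on group values. In bulk tissue, a lower level cannot be told apart from fewer cells of the type that expresses the gene.

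In the plastid, allene oxide synthase (AOS) turns the fatty acid hydroperoxide made by lipoxygenase into an unstable allene oxide, and allene oxide cyclase (AOC) closes it to oxophytodienoic acid (OPDA). In the peroxisome, OPDA reductase (OPR) reduces this intermediate, and beta-oxidation shortens it to jasmonic acid. JAR1 then joins jasmonic acid to isoleucine, giving the active hormone. The F-box protein COI1 binds this conjugate together with a JAZ repressor, the repressor is degraded, and MYC2, a bHLH transcription factor that JAZ proteins hold inactive, is released. In rice, the hormone is known for its part in wound and pathogen responses, in the opening of the floret and in restraining shoot growth.

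Ratios were taken as log2 of NP over EP or of Swarna over Pokkali after adding 0.5 to each FPKM, and a gene was counted as higher or lower where the ratio reached 2-fold, a log2 ratio of 1 in size. Folds printed for a gene or row, other than this minimum, are of the FPKM without the 0.5, so they differ slightly from the log2 ratios beside them. Stem genes were present in all groups. CESA4 and CESA7, which encode secondary wall cellulose synthases, had 5.94 and 5.25 FPKM in Swarna NP, 54.9 and 68.1 in Swarna EP, 138 and 49.8 in Pokkali NP, and 264 and 170 in Pokkali EP. SUT1, a sucrose transporter gene, had 125 FPKM in Swarna NP, 10.5 in Swarna EP, 62.0 in Pokkali NP and 18.7 in Pokkali EP. Swarna NP was thus the lowest group for both wall genes and the highest for SUT1. The part of these differences in the jasmonate values was not tested. The columns of FPKM had different sums, 609663 in Swarna NP, 330514 in Swarna EP, 502800 in Pokkali NP and 419002 in Pokkali EP. Bringing the columns to equal sums moved the median log2 ratio over all genes by −0.77 for NP over EP in Swarna, −0.18 for NP over EP in Pokkali, −0.20 for Swarna over Pokkali at NP and 0.28 at EP, and quantile normalization moved the Swarna median by −0.12, so a ratio of the 8 genes is given with its value under other scalings where its direction or a 2-fold difference depends on them. The 6 alternatives referred to below are constants of 0.1 and 1, these scalings together with one by median ratios, and the sum of all rows of a locus.

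In Swarna, NP exceeded EP by at least 2-fold for 4 of the 8 genes (AOS2, AOC, OPR7 and JAR1) and none was lower. Of all genes compared, 26.6% were at least 2-fold higher and 25.4% lower, or 51.9% in either direction. AOS2 passed the filter only through Swarna NP, with values near 0 elsewhere, so its call followed from the filter and is no support for a direction. At a filter of 5 FPKM, which removed AOS2, the count was 3. AOS2 also enters the medians below. In Pokkali, 2 of the 8 were past 2-fold and higher in NP (AOC and COI1b) and none was lower, where 15.9% of all genes were higher and 14.8% lower, or 30.7% in either direction. AOC was the single gene of the 8 whose NP value exceeded EP by 2-fold or more in Swarna and in Pokkali alike, as 10.8% of all genes did, and none was lower in both, as 10.97% of all genes were. The median log2 ratio of the 8 genes was 0.99 in Swarna, where all genes compared had 0.03, and 0.45 in Pokkali, where all genes compared had 0.05. Under equal column sums the Swarna median of the 8 genes was 0.13, where all genes had −0.73, and under quantile normalization it was 0.16, where all genes had −0.09. The Pokkali median was 0.19 under equal sums, where all genes had −0.14, and 0.32 under quantile normalization, where all genes had 0.03. Under equal column sums and under quantile normalization, AOC and JAR1 left the Swarna count and COI1b left the Pokkali count, leaving 2 genes in Swarna (AOS2 and OPR7) and 1 in Pokkali (AOC). The numbers over all genes moved too, with the 1 FPKM filter applied after scaling. Genes higher in NP were 2856 in Swarna and 2329 in Pokkali under equal sums, against 5081 and 3040 as deposited. Under quantile normalization they were 4504 and 2932. Less the shift of the median, the Swarna ratios under equal sums were 0.59 for AOS1, 2.96 for AOS2, 1.03 for AOC, 2.27 for OPR7, 0.94 for JAR1, 0.53 for COI1a, −0.17 for COI1b and 0.85 for MYC2. Under quantile normalization, less its shift, they were 0.10 for AOS1, 2.92 for AOS2, 0.28 for AOC, 1.58 for OPR7, 0.95 for JAR1, −0.19 for COI1a, −0.79 for COI1b and 0.28 for MYC2. AOS2 and OPR7 were past 2-fold by each of these readings. Equal sums multiply each column by 1 factor, so taking off the shift returns nearly the deposited ratio and is no separate check. For AOS2, near 0 in Swarna EP, the constant damps the scaling, so 2.96 exceeds its deposited 2.55. Under quantile normalization JAR1 was 0.83, or 0.95 less the shift, against its deposited 1.02. The study lists AOS1, AOC, OPR7 and JAR1 among hormone genes that differed in these same samples, so their differences are not independent evidence of a direction.

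**Figure D1:**
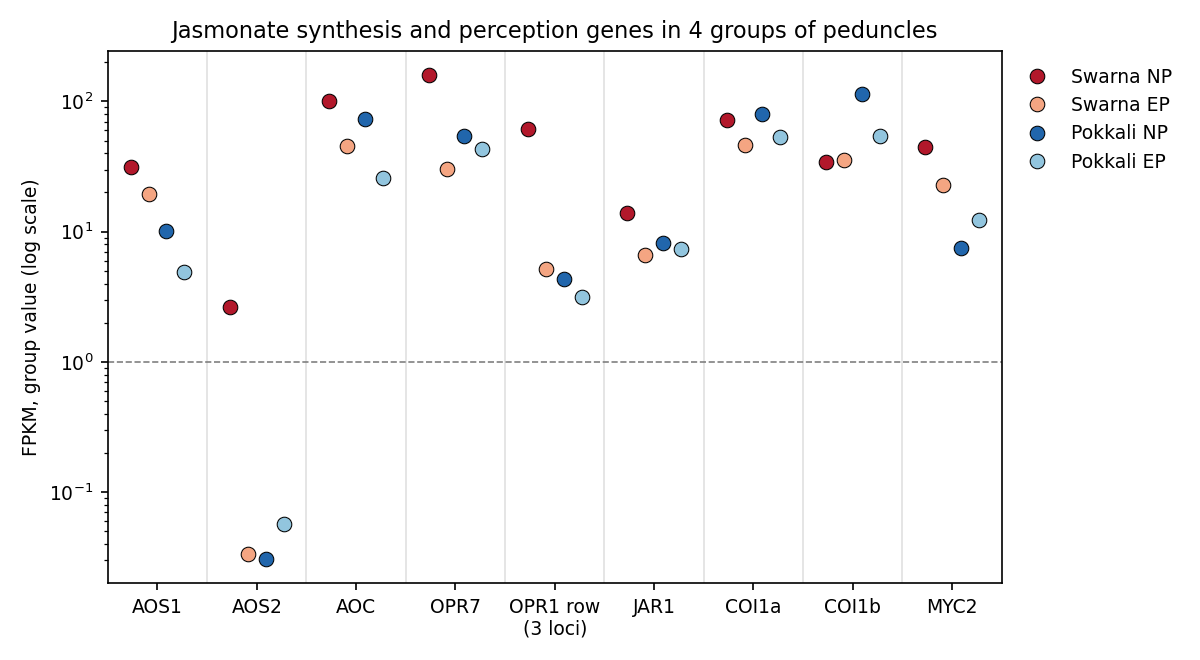
FPKM of each gene on a log axis, with 1 point for each group and no error bars, since 3 libraries are combined in each value. The dashed line is at 1 FPKM. AOS2 lies above it in Swarna NP alone, and the row with OPR1, which names 3 loci, stands at 61.9 FPKM in Swarna NP and at 3.17 to 5.15 in the other groups.

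AOS1 (LOC_Os03g55800, chromosome 3 from 31763365 to 31767297), named OsAOS2 in the hormone list of the study, carries the first committed step. It had 31.6 FPKM in Swarna NP and 19.4 in Swarna EP, and 10.04 FPKM in Pokkali NP and 4.93 in Pokkali EP. Both Swarna groups lay above both Pokkali groups. The log2 ratio of NP to EP was 0.69 in Swarna, or −0.18 under equal column sums and −0.02 under quantile normalization. In Pokkali it was 0.96, short of 2-fold only through the 0.5 added, the FPKM themselves being 2.04-fold apart. At a constant of 0.1 the Pokkali ratio was 1.01. Between the cultivars the log2 ratio was 1.61 at NP and 1.88 at EP. As deposited, AOS1 was the only one of the 8 genes at least 2-fold different between the cultivars before heading, with AOC and MYC2 joining it under equal sums and quantile normalization. Of all genes, 7.49% were at least 2-fold higher and 9.92% lower in Swarna EP as deposited, or 17.4% in either direction, and the ratio of AOS1 exceeded that of 97.7%. Genes higher in Swarna EP numbered 2696 under equal sums and 1481 under quantile normalization, against 1433 as deposited. A second row of the assembly with the same span held 0.143 to 1.17 FPKM and was not used.

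AOS2 (LOC_Os03g12500, chromosome 3 from 6608577 to 6610598) encodes the same activity. Its value was 2.63 FPKM in Swarna NP, 0.0338 in Swarna EP, 0.0307 in Pokkali NP and 0.0570 in Pokkali EP. It passed 1 FPKM in Swarna NP, and the 3 other groups lay so near 0 that no fold against them is given. The log2 ratio was 2.55 for Swarna NP over EP and 2.56 for Swarna over Pokkali at NP. These sizes depend on the constant added, and both stayed past 2-fold at constants of 0.1 and 1. Even in Swarna NP its level was far below the 31.6 FPKM of AOS1, FPKM being scaled to transcript length.

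AOC (LOC_Os03g32314, chromosome 3 from 18485606 to 18488503) makes OPDA. It had 101 FPKM in Swarna NP and 45.8 in Swarna EP, and 73.0 FPKM in Pokkali NP and 26.0 in Pokkali EP, so that both NP groups stood above both EP groups. The log2 ratio of NP to EP was 1.14 in Swarna and 1.47 in Pokkali. The Pokkali ratio exceeded that of 90.7% of all genes and stayed past 2-fold under the 6 alternatives. The Swarna ratio was 0.26 under equal column sums and 0.16 under quantile normalization. In rank the gene had nearly the same place in both columns, above 94.7% of genes in Swarna NP and above 93.9% in Swarna EP. The cultivars differed by less than 2-fold, with log2 ratios of Swarna to Pokkali of 0.47 at NP and 0.81 at EP. The EP ratio passed 2-fold under equal sums, at 1.15, and under quantile normalization. Of the 2 other rows of this locus, none exceeded 1.32 FPKM in any group.

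OPR7 (LOC_Os08g35740, chromosome 8 from 22547184 to 22550740) encodes the reductase that acts on OPDA in the peroxisome. It had 160 FPKM in Swarna NP and 30.2 in Swarna EP, against 53.8 FPKM in Pokkali NP and 43.2 in Pokkali EP. Swarna NP stood apart, and the other 3 groups lay close together. NP was 5.28-fold EP in Swarna, a log2 ratio of 2.38 that exceeded that of 90.9% of all genes, and 1.25-fold in Pokkali, a log2 ratio of 0.31. The Swarna ratio was between 1.46 and 2.40 under the 6 alternatives. Its excess over the Pokkali ratio, 2.07 on the log2 scale, was between 1.28 and 2.08 under them. Among all genes, 21.9% had a Swarna ratio at least 1 above their Pokkali ratio.

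The row that names OPR1 spans chromosome 6 from 5894721 to 5919690, or 24970 bases, and combines LOC_Os06g11240, LOC_Os06g11280 and LOC_Os06g11290, so the part of OPR1 (LOC_Os06g11290), a gene of the same reductase family, cannot be separated from its neighbours. The row had 61.9 FPKM in Swarna NP and 5.15 in Swarna EP, and 4.35 FPKM in Pokkali NP and 3.17 in Pokkali EP. As for OPR7, Swarna NP was the group that stood apart. NP was 12.01-fold EP in Swarna, a log2 ratio of 3.46, where 27.1% of the 1223 rows of several loci that passed the filter were at least 2-fold higher and 96.2% had a smaller ratio. In Pokkali the log2 ratio was 0.40, where 17% of these rows were at least 2-fold higher. At NP, Swarna was 14.2-fold Pokkali, and 23.2% of these rows were at least 2-fold higher in Swarna. At EP the log2 ratio of Swarna to Pokkali was 0.62, where 11% of these rows were at least 2-fold higher. The Swarna ratio was 2.62 under equal column sums, 3.44 under median-ratio scaling and 3.10 under quantile normalization.

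JAR1 (LOC_Os05g50890, chromosome 5 from 29200198 to 29205717), OsJAR1;2 in the list of the study, had 14.0 FPKM in Swarna NP and 6.66 in Swarna EP, and 8.19 FPKM in Pokkali NP and 7.36 in Pokkali EP. Again the 3 groups other than Swarna NP were close to each other. Its log2 ratio of 1.02 in Swarna was barely past 2-fold and fell short of it at a constant of 1 and under each of the 3 scalings, with 0.18 under equal sums, 0.99 under median-ratio scaling and 0.83 under quantile normalization. In Pokkali the ratio was 0.15, or −0.10 under equal sums. The log2 ratio of Swarna to Pokkali was 0.74 at NP and −0.13 at EP, and the EP value was 0.19 under equal sums.

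None of the 3 genes of perception reached a 2-fold stage difference in Swarna. COI1a (LOC_Os01g63420, chromosome 1 from 36746807 to 36753972) had 72.3 FPKM in Swarna NP and 46.2 in Swarna EP, and 80.4 FPKM in Pokkali NP and 53.6 in Pokkali EP. It was the steadiest of the 8 genes, with 1.74-fold between its highest and lowest group. The log2 ratio of NP to EP was 0.64 in Swarna and 0.58 in Pokkali, and the Swarna value turned to −0.23 under equal sums and −0.31 under quantile normalization. Between the cultivars the log2 ratio was −0.15 at NP and −0.21 at EP, the second of which was 0.13 under equal sums and 0.27 under quantile normalization.

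COI1b (LOC_Os05g37690, chromosome 5 from 22060723 to 22063865) encodes the other COI1 protein among the members. It had 34.2 FPKM in Swarna NP and 35.7 in Swarna EP, and 113 FPKM in Pokkali NP and 54.4 in Pokkali EP. Here Pokkali NP was the group that stood apart. The log2 ratio of NP to EP was −0.06 in Swarna and 1.05 in Pokkali, and the Pokkali value was 0.79 under equal sums and 0.91 under quantile normalization. At NP the log2 ratio of Swarna to Pokkali was −1.71, and it lay between −1.99 and −1.63 under the alternatives. COI1b was the 1 gene of the 8 that was at least 2-fold lower in Swarna NP than in Pokkali NP, as 20.3% of all genes were.

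MYC2 (LOC_Os10g42430, chromosome 10 from 22857123 to 22860156) had 44.6 FPKM in Swarna NP and 22.8 in Swarna EP, and 7.51 FPKM in Pokkali NP and 12.3 in Pokkali EP. The Swarna groups stood above the Pokkali groups, and the stage ratios had opposite signs in the cultivars, as in 30.5% of all genes. The signs differed for COI1b and AOS2 too, but COI1b hardly changed in Swarna (−0.06), and AOS2 was near 0 FPKM in both Pokkali groups (−0.07). The log2 ratio of NP to EP was 0.96 in Swarna and −0.67 in Pokkali, neither of which reached 2-fold, and the Swarna value was 0.09 under equal sums and 0.16 under quantile normalization. At NP, Swarna was 5.94-fold Pokkali, a log2 ratio of 2.49 that exceeded that of 96.1% of all genes and lay between 2.20 and 2.57 under the alternatives. At EP the log2 ratio was 0.87, or 1.20 under equal sums and 1.27 under quantile normalization. A second row of the locus held at most 0.569 FPKM.

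**Figure D2:**
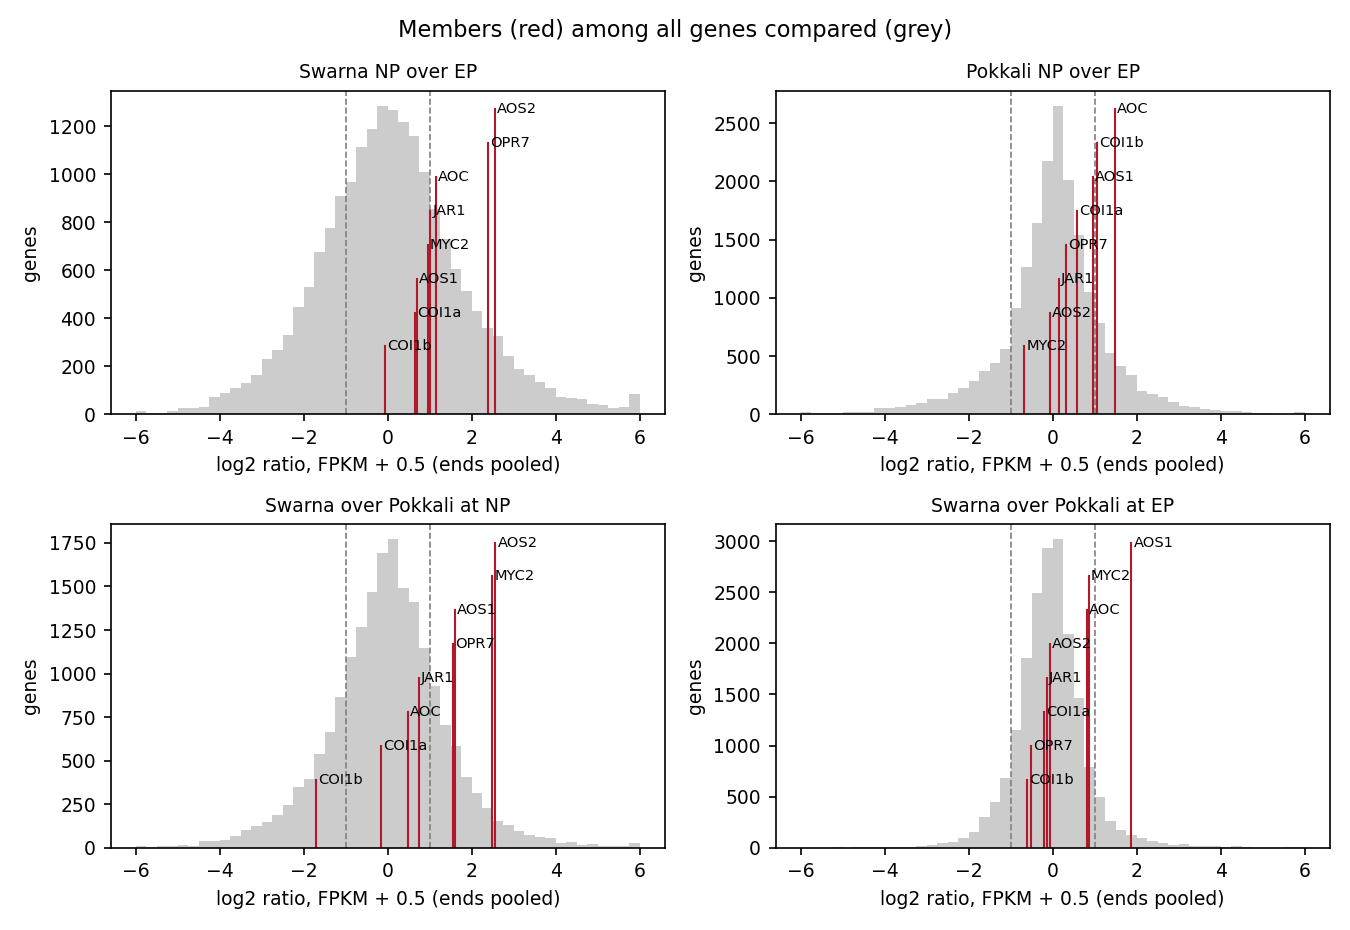
Histograms of the log2 ratio (FPKM plus 0.5) of all 19126 genes compared, in grey, for the 4 comparisons, with ratios beyond 6 in size pooled at the ends and dashed lines at 2-fold. Each red line marks 1 of the 8 genes, and its height serves only to part the labels. At NP, 4 genes lie right of the upper dashed line and COI1b left of the lower one, while at EP only AOS1 is past 2-fold in these deposited values.

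After heading, Swarna NP thus exceeded Pokkali NP by 2-fold or more for 4 of the 8 genes (AOS1, AOS2, OPR7 and MYC2), as it did for 20.4% of all genes, and COI1b was lower. The call of AOS2 again followed from its passing the filter through Swarna NP alone. At a filter of 5 FPKM, which removed AOS2, the count was 3. In either direction, 40.7% of all genes were past 2-fold. Before heading it was AOS1 alone as deposited, and AOS1, AOC and MYC2 under equal sums and quantile normalization. Over all genes 1433, or 7.49%, were higher in Swarna EP as deposited. Under equal sums 2696 were, and under quantile normalization 1481. The median log2 ratio of Swarna to Pokkali over the 8 genes was 1.15 at NP and −0.10 at EP, beside 0.02 and −0.06 over all genes. Under equal sums the median of the 8 was 0.88 at NP and 0.16 at EP, beside −0.18 and 0.22 over all genes, and under quantile normalization it was 0.93 at NP and 0.10 at EP, beside −0.01 and 0.01. All 5 differences at NP and that of AOS1 at EP remained past 2-fold under the 6 alternatives. The NP ratio and the stage ratio of Swarna share the Swarna NP column, so they are not separate observations. No test of a difference between the cultivars was possible.

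**Figure D3:**
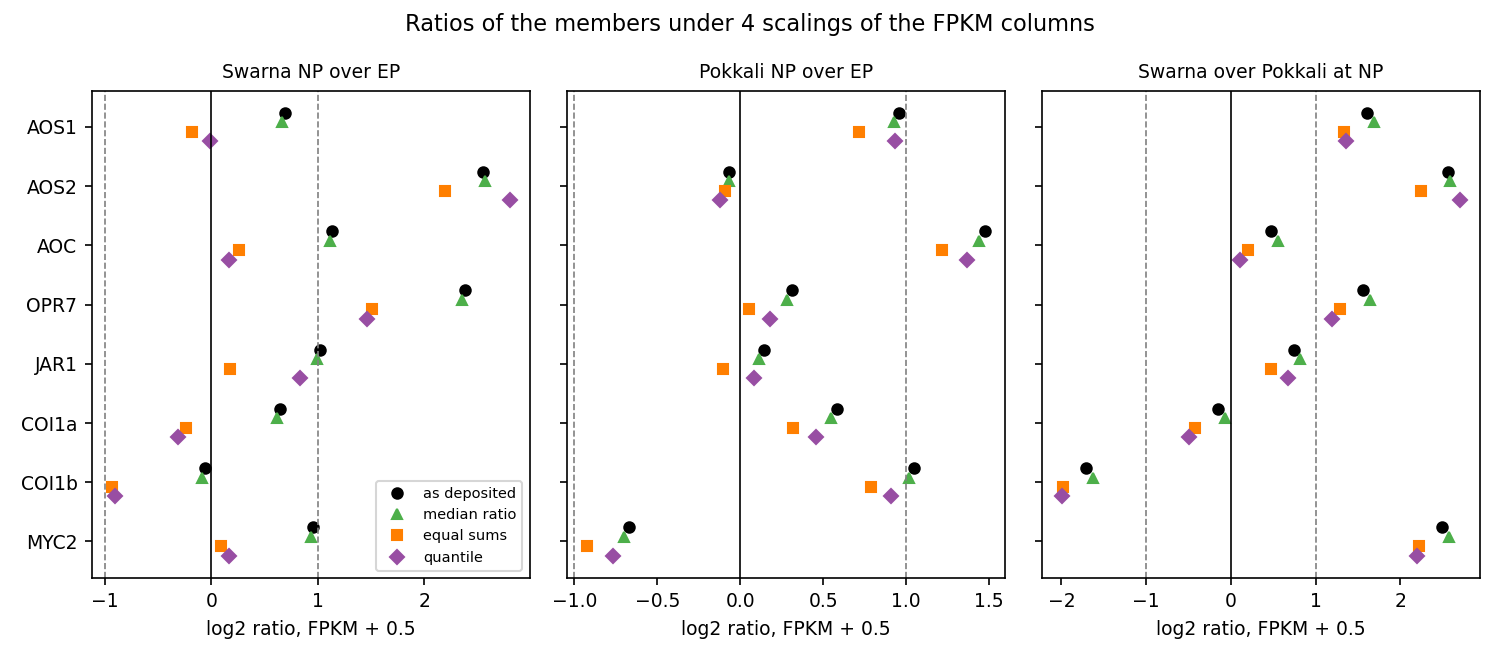
Log2 ratios (FPKM plus 0.5) of the 8 genes for NP over EP in Swarna, NP over EP in Pokkali and Swarna over Pokkali at NP, as deposited and under 3 other scalings of the columns, with dashed lines at 2-fold. In Swarna, AOS1 and COI1a change sign under equal sums and quantile normalization, while OPR7 and AOS2 stay past 2-fold, and at NP the 5 differences between the cultivars stay past it.

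Ratios of 2 genes within a group do not change when a column is multiplied by 1 factor, as under equal sums and median-ratio scaling, though quantile normalization moves them. COI1b was 0.473 of COI1a in Swarna NP and 0.774 in Swarna EP, against 1.41 in Pokkali NP and 1.02 in Pokkali EP. The balance of COI1a and COI1b thus moved toward COI1a in Swarna after heading and toward COI1b in Pokkali. MYC2 was 0.617 of COI1a in Swarna NP and 0.493 in Swarna EP, and 0.0935 in Pokkali NP and 0.229 in Pokkali EP. Among the synthesis genes, OPR7 was 5.05 times AOS1 in Swarna NP and 1.56 times in Swarna EP, but 5.36 times in Pokkali NP and 8.76 times in Pokkali EP. The AOC level was 3.21 times that of AOS1 in Swarna NP, 2.36 times in Swarna EP, 7.27 times in Pokkali NP and 5.27 times in Pokkali EP, so that AOS1 was the lower of the pair throughout. Under quantile normalization COI1b was 0.490 of COI1a in Swarna NP and 0.745 in Swarna EP, against 1.40 in Pokkali NP and 1.02 in Pokkali EP, and AOC was 3.02 times AOS1 in Swarna NP and 2.66 times in Swarna EP. These are ratios of group values without an error.

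**Figure D4:**
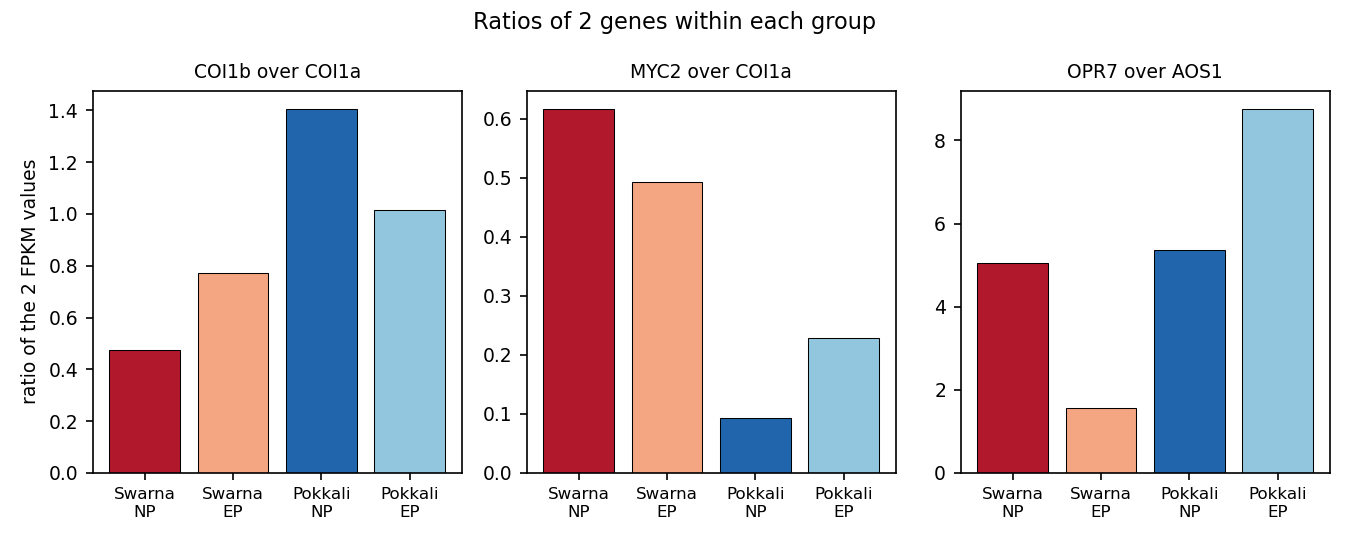
Ratio of the FPKM of 2 genes within each group, 1 bar per group and without error bars. COI1b over COI1a is below 1 in both Swarna groups (0.473 and 0.774) and above 1 in both Pokkali groups (1.41 and 1.02), and MYC2 over COI1a is lowest in Pokkali NP, at 0.0935.

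In level, the order of the genes differed between the groups. In Swarna NP the highest of the 8 were OPR7 (160 FPKM), AOC (101) and COI1a (72.3). In Swarna EP COI1a (46.2) and AOC (45.8) led with nearly equal values. In Pokkali NP they were COI1b (113), COI1a (80.4) and AOC (73.0), and in Pokkali EP COI1b (54.4), COI1a (53.6) and OPR7 (43.2). AOS2 was the lowest in every group. Since the spread between libraries is not known, neighbouring values in these orders cannot be called different.

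The other 21 jasmonate genes in the hormone list of the study were selected for differing in these samples. Of the 21, 18 were higher by 2-fold or more and 3 lower in Swarna NP than in Swarna EP, with a median log2 ratio of 3.13. Of all genes compared, 26.6% were higher and 25.4% lower. In Pokkali 10 were higher and 2 lower, with a median of 0.97, where 15.9% of all genes were higher and 14.8% lower. Under equal column sums these counts were 14 and 3 in Swarna and 10 and 2 in Pokkali. Over all genes, 2856 were then higher and 8545 lower in Swarna, against 5081 and 4849 as deposited. In Pokkali 2329 were higher and 3729 lower, against 3040 and 2827. The filter of 1 FPKM was passed by 19 of the 21. OsDAD1;4 and OsLOX2;2 did not pass it, with at most 0.777 and 0.745 FPKM, though both are among the 18. The choice of the list fixes that most of its genes differ, so the counts say nothing against the 8 genes, of which 4 are on that list as well.

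Upstream of AOS, lipoxygenase makes the hydroperoxide. OsLOX2;3 had 33.6 FPKM in Swarna NP, 0.0708 in Swarna EP, 0.323 in Pokkali NP and 0.0297 in Pokkali EP. OsLOX2;1 had 11.02 FPKM in Swarna NP and was listed at 0 in Swarna EP, with 0.0981 FPKM in Pokkali NP and again a value listed at 0 for Pokkali EP. Like AOS2, both lipoxygenase genes passed 1 FPKM in Swarna NP alone. They also come from the list chosen for differing in these samples. Their likeness to AOS2 thus followed from the filter and the list, and it is no support for a direction. The third, OsLOX2;2, reached at most 0.745 FPKM, in Swarna NP. OsDAD1;3, one of the lipases that free linolenic acid, as known from Arabidopsis, had 50.5 FPKM in Swarna NP and 5.40 in Swarna EP, and 4.66 FPKM in Pokkali NP and 1.65 in Pokkali EP. OsDAD1;4 stayed under 1 FPKM in all groups, and OsPLA1 was lower in NP in both cultivars, the log2 ratio being −1.36 in Swarna and −1.26 in Pokkali.

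Downstream of OPR, each of the 4 genes of beta-oxidation was past 2-fold and higher in NP in Swarna, and 1 was in Pokkali. OsACX, an acyl-CoA oxidase gene, had 264 FPKM in Swarna NP and 25.8 in Swarna EP, and 69.8 FPKM in Pokkali NP and 40.7 in Pokkali EP. For OsKAT, of the thiolase step, the Swarna ratio was 2.83 and that of Pokkali 1.28 on the log2 scale. For OsAIM1, of the step between them, it was 2.65 in Swarna and 0.97 in Pokkali. OsOPCL1, a ligase gene that activates the OPR product, had 41.8 FPKM in Swarna NP and 12.1 in Swarna EP, against 11.6 in Pokkali NP and 19.2 in Pokkali EP. The Swarna ratios of the 4 genes, from 1.75 to 3.33, lay on either side of that of OPR7 (2.38). Under equal sums 3 of the 4 stayed past 2-fold in Swarna, and OsOPCL1 had 0.89. Over all genes, 2856 were then past 2-fold and higher in NP in Swarna, against 5081 as deposited. These genes too come from the list chosen for differing in these samples, and the share of all genes past 2-fold and higher in NP was 26.6% in Swarna and 15.9% in Pokkali.

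At the step of JAR1, the related OsJAR1;3 ran the other way in Swarna, with 0.911 FPKM in Swarna NP and 2.82 in Swarna EP, and 3.75 FPKM in Pokkali NP and 1.92 in Pokkali EP. Its Swarna ratio was −1.23, or −0.83 under quantile normalization. JAR1 was the more abundant of the pair in all 4 groups. The methyltransferase genes named for jasmonate differed in direction. OsJMT2 had 5.15 FPKM in Swarna NP and 0.0690 in Swarna EP, with 7.59 FPKM in Pokkali NP and a value listed at 0 for Pokkali EP, whereas OsJMT5 was lower in NP, by log2 ratios of −1.35 for Swarna and −2.40 for Pokkali.

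The 8 JAZ genes of the list, the partners of COI1 and MYC2, were all at least 2-fold higher in NP in Swarna, with a median log2 ratio of 3.57, and 7 were in Pokkali, with a median of 2.64. The share of all genes so called was 26.6% in Swarna and 15.9% in Pokkali, but these JAZ genes were listed for differing. Under equal sums and under quantile normalization 7 were so in each cultivar, without OsJAZ3. Over all genes, 2856 were so in Swarna and 2329 in Pokkali under equal sums, against 5081 and 3040 as deposited. Under quantile normalization 4504 and 2932 were. The JAZ genes were also higher in Swarna NP than in Pokkali NP, all 8 by at least 2-fold, where 20.4% of all genes were, and with log2 ratios from 1.53 (OsJAZ3) to 6.42 (OsJAZ1). Before heading all 8 were higher in Swarna as well, with a median of 1.51. Of these, 6 were past 2-fold, where 7.49% of all genes were, or 8 under equal sums and 7 under quantile normalization. All genes so called numbered 1433 as deposited, 2696 under equal sums and 1481 under quantile normalization. In Pokkali, MYC2 with −0.67 and JAZ genes with 0.91 to 4.68 had ratios of opposite sign, while in Swarna both were positive.

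**Figure D5:**
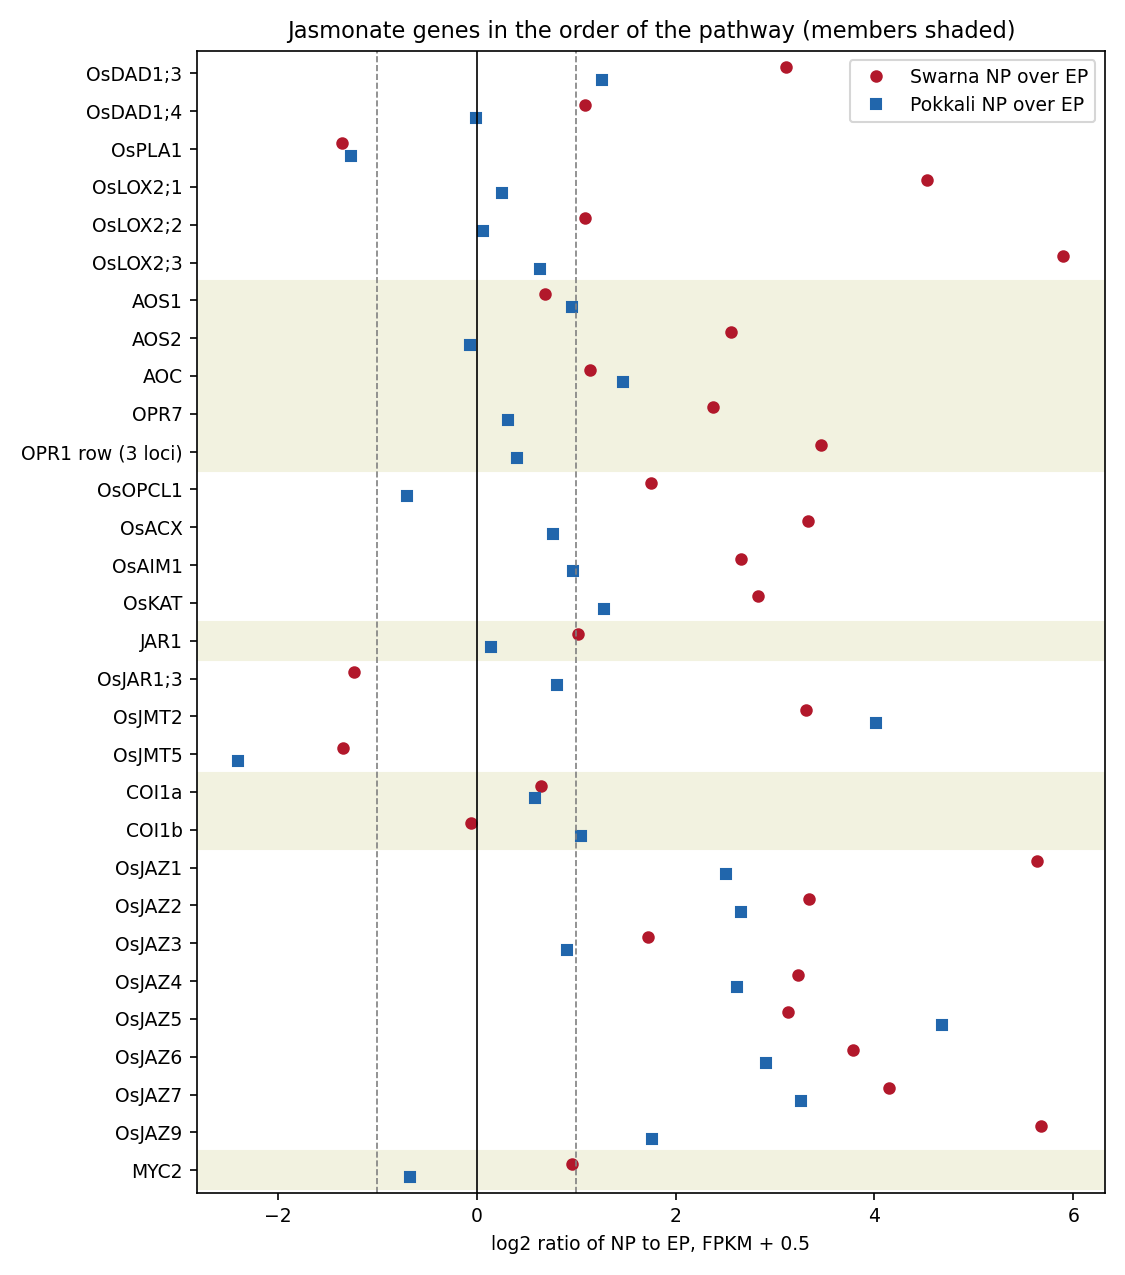
Log2 ratio of NP to EP (FPKM plus 0.5) in Swarna (circles) and Pokkali (squares) for jasmonate genes in the order of the pathway, the members described here shaded and the row with OPR1 among them. The EP values of OsLOX2;1 in both cultivars and of OsJMT2 in Pokkali were listed at 0, so the size of their ratios depends on the constant added. OPR7, the row with OPR1 and the genes of beta-oxidation lie right of the upper dashed 2-fold line in Swarna, and OsKAT is the one of these that does so in Pokkali.

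For the 3 genes with the widest range over the groups, the nearest patterns were sought among 205 genes of cell wall, carbohydrate and hormone functions listed by the study, as the Euclidean distance of the 4 log2 values after subtracting their mean. For AOS1 they were OsACS1, an ethylene synthesis gene (distance 0.41, with 8.40 FPKM in Swarna NP, 7.45 in Swarna EP, 3.08 in Pokkali NP and 1.10 in Pokkali EP) and the auxin response factor gene OsARF6 (0.49). For AOS2 they were OsACO5, also of ethylene synthesis (0.27, with 7.68 FPKM in Swarna NP, 0.677 in Swarna EP, 0.935 in Pokkali NP and 1.07 in Pokkali EP) and the 4CL gene LOC_Os01g67530 (0.51). For MYC2 they were OsPP2C1 (0.57, with 242 FPKM in Swarna NP, 76.7 in Swarna EP, 42.9 in Pokkali NP and 57.0 in Pokkali EP) and OsARF6 (0.86). With 4 points per gene, such likeness describes the order of the groups and no more.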

How the data were processed

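Peduncle RNA of 12 libraries was sequenced from stranded total RNA libraries. Per the labels and the methods, the authors used the NGSQC Toolkit for read quality and HISAT2 2.1.0 for alignment to the Rice Genome Annotation Project version 7 genome. StringTie 1.3.3b assembled transcripts, Cuffmerge joined the assemblies, and Cuffdiff and Cufflinks followed. The values were taken as FPKM as the authors deposited them, 1 value per assembled gene and group. The table gives no counts, so the depth behind a value is unknown, and low FPKM are the least precise.

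Of 73781 rows, 62442 name 1 locus. The row with the highest mean of the 4 groups was used where a locus had several. Genes with at least 1 FPKM in at least 1 group were compared as log2 ratios of FPKM plus 0.5 with a 2-fold minimum. Starts of loci were taken to count from 0, as Cuffdiff writes them, and 1 was added. The linear model planned for values of single libraries could not be run on group values. The genes named were all members, the jasmonate genes of the hormone list of the study and, for the 3 members of widest range, the 2 genes nearest in pattern. The members and lists were chosen with earlier results of these data known. Alternatives were constants of 0.1 and 1, scalings of the columns to equal sums, by median ratios or by quantiles, the sum of all rows of a locus, other filters and fold minimums. The code was tested on simulated data. Python 3.11.15, numpy 2.4.6, pandas 2.3.3 and matplotlib 3.10.9 were used.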

Additional observations from a re-analysis of the deposited data

Results flagged for a closer look

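Genes whose log2 ratio of NP to EP had opposite signs in the cultivars were singled out, as 30.5% of all genes compared had, with the Swarna ratio minus the Pokkali ratio given for each. None of these differences was tested, since each group has 1 value. MYC2 had 0.96 in Swarna and −0.67 in Pokkali, a difference of 1.63. COI1b had −0.06 in Swarna and 1.05 in Pokkali, a difference of −1.11. AOS2 had 2.55 in Swarna and −0.07 in Pokkali, a difference of 2.62, with 3 of its 4 values under 0.1 FPKM. Among the other jasmonate genes, OsOPCL1 had 1.75 in Swarna and −0.70 in Pokkali (2.45), OsJAR1;3 had −1.23 in Swarna and 0.81 in Pokkali (−2.04), and OsDAD1;4, under 1 FPKM in all groups, had 1.09 in Swarna and −0.01 in Pokkali (1.10). The Swarna ratio fell within 2-fold for OsOPCL1 (0.89) and OsDAD1;4 (0.77) under equal sums and for OsJAR1;3 (−0.83) under quantile normalization.

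The row that combines OPR1 with 2 neighbouring loci lies outside the genes compared. Swarna NP over EP came to 3.46 on the log2 scale, and Pokkali NP over EP to 0.40. Which of its 3 loci carried the Swarna NP value cannot be read from the table.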

How the results depend on the processing

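No paired analysis was possible because each group has 1 value in which its 3 libraries are combined, and for the same reason no library could be left out. Of 240 member ratios under 6 alternatives (constants 0.1 and 1, 3 scalings, sum of rows), 225 kept their side of 2-fold or, for the Swarna minus Pokkali differences, their sign, 8 fell below 2-fold, 5 passed it and 2 differences changed sign. Ratios within 2-fold that changed sign are given above with AOS1, JAR1 and COI1a. The 2 differences were for COI1a, at −0.55 under equal sums and −0.77 under quantile normalization, against 0.06 as deposited. Under equal sums and under quantile normalization, 2 members (AOS2 and OPR7) were at least 2-fold higher in NP in Swarna, against 4 as deposited. In Pokkali 1 was, against 2, and 3 were higher in Swarna than in Pokkali at EP, against 1. All genes so called numbered 2856 in Swarna, 2329 in Pokkali and 2696 at EP under equal sums. Under quantile normalization they numbered 4504, 2932 and 1481, and as deposited 5081, 3040 and 1433. With a fold minimum of 1.5 the members numbered 7 higher in NP in Swarna, where 35.8% of all genes (6847) were. In Pokkali 3 members were higher in NP and 1 lower (MYC2), where 26.4% of all genes were higher and 23.6% lower. Between the cultivars at NP, 5 members were higher and 1 lower in Swarna, where 31.2% of all genes were higher and 30.3% lower. At EP 3 were higher and 1 lower, where 16.5% were higher and 22.0% lower. With a minimum of 3 the members numbered 2 higher in NP in Swarna (AOS2 and OPR7), where 17.1% of all genes were, and 0 in Pokkali, where 8.33% were. AOS2 is in each of these counts of higher members for NP over EP in Swarna and for the cultivars at NP. Its calls followed from its passing the filter through Swarna NP alone. At a constant of 0.1, AOS1 passed 2-fold in Pokkali, at 1.01, and at a constant of 1 JAR1 fell short in Swarna, at 0.97. A filter of 5 FPKM removed AOS2.

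Of all genes past 2-fold in Swarna, 25.1% were higher in NP under equal sums, against 51.2% as deposited, with 2856 genes higher and 8545 lower in NP, against 5081 and 4849. In Pokkali the share was 38.4%, against 51.8%, for Swarna over Pokkali at NP 37.5%, against 50.2%, and at EP 69.9%, against 43.0%, with 2696 genes higher and 1162 lower in Swarna, against 1433 and 1898. At 5 FPKM, 2992 genes were lower in NP in Swarna and 805 were higher in Swarna at EP. A fold minimum of 1.5 gave 5056 genes higher and 4516 lower in NP in Pokkali, against 3040 and 2827, with 5963 higher in Swarna at NP, and 3156 higher and 4213 lower at EP. A minimum of 3 gave 3278 and 2937 in Swarna, 1593 and 1699 in Pokkali, 2058 and 2152 between the cultivars at NP, and 617 and 638 at EP. The cause of the different column sums was not tested.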
